A study of Homo sapiens with 28 samples.

Results

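The 4 HOX clusters hold the homeobox genes that pattern the body axis, and 38 of these genes were followed here: 10 in HOXA, 10 in HOXB, 9 in HOXC and 9 in HOXD. The features described are the CUT&RUN peaks that overlapped 1 of 4 windows of build hg19, namely chr7:27110000-27260000 for HOXA, chr17:46600000-46820000 for HOXB, chr12:54320000-54460000 for HOXC and chr2:176940000-177060000 for HOXD. Of 1123337 peaks in 28 lists, 272 fell in these windows: 124 in HOXA, 141 in HOXB, 1 in HOXC and 6 in HOXD. At the edges, a peak with a fold of 4.09 ended at 46599821 just outside HOXB and one with a fold of 3.03 started at 46600240 just inside, while the nearest peak below HOXA ended at 27104241 and the first within it started at 27112454.

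CUT&RUN uses a nuclease tethered to an antibody to release the DNA around a bound protein or a histone mark. The cells were IMR-90 ER:Ras, a human fetal lung fibroblast line in which 4-hydroxytamoxifen (100 nM for 6 days) activates a Ras fusion and brings on senescence. Libraries were made with antibodies to H3K27ac (14), to FOXF1, a forkhead factor of lung mesenchyme (8), and to p-c-JUN, the phosphorylated AP-1 subunit c-JUN (6). The conditions were proliferating (Pro), senescent with control siRNA (Sen), and senescent with siRNA to FOXF1 and FOXF2 (siFOXF1/2), to p300 and CBP (sip300/CBP, with a Sen control of its own) or to JUN family members. Every group had 2 libraries, except that H3K27ac in Sen cells had 4, of which replicates 3 and 4 came in a second deposit with both JUN knockdown groups. The tags of the Pro samples named senescent cells and the same drug treatment as Sen, so Pro rests on the sample titles. Titles of the JUN knockdown name cJUN and JUND, while a treatment tag adds JUNB. All groups carry the inducible Ras, siRNA lowers a gene's product without deleting the gene, and nothing states that replicates were separate cultures, so the spread between them may be technical.

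HOX genes lie in the order in which they act along the body axis, and their products are homeodomain transcription factors that work with PBX and MEIS partners. Fibroblasts keep a HOX pattern that reflects the body site they came from, the genes at the HOXA2 and HOXB1 ends act toward the head end of the axis, and HOXA5 and HOXB5 are known from lung mesenchyme. H3K27ac is deposited mainly by p300 and CBP and marks active promoters and enhancers. In RefSeq gene order, with all 38 symbols matched, the low-coordinate end of the window carries HOXA2 in HOXA and HOXB1 in HOXB, but HOXC13 in HOXC and HOXD13 in HOXD. No hg19 gene models were used, so peaks are named by position and not by gene.

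Promoter sequences were read for the letters that forkhead and AP-1 factors are known for, since FOXF1 peaks were counted in these clusters. RefSeq promoters of GRCh38.p14 were listed for 20 of the 38 genes (9 in HOXA, 1 in HOXB, 2 in HOXC and 8 in HOXD), with 27 starts in all, each covering 250 bases before to 50 after the start. The forkhead letters GTAAACA, searched on both strands, stood in 2 of 27, which are the listed start shared by HOXC4 and HOXC5, and in 3.42% of all 35116 promoters. The shorter TAAACA, which lies inside GTAAACA, stood in 5 of 27, the others being 3 starts of HOXA3, against 12.3% of all promoters. The AP-1 letters TGANTCA stood in 0 of 27 against 7.71%. The sequences printed are the 250 bases before the HOXC4 and HOXC5 start (chr12:54016638-54016887 of GRCh38.p14, plus strand), from the cluster with 0 FOXF1 peaks, and before 1 HOXA3 start (chr7:27122373-27122622 of GRCh38.p14, minus strand), from the cluster with the most. Capitals mark the forkhead letters.
HOXC4 and HOXC5: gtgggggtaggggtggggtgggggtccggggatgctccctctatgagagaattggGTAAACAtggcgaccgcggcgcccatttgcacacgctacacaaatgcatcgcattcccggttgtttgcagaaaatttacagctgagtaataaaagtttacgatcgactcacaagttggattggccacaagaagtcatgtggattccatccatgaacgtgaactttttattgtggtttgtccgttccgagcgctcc
HOXA3: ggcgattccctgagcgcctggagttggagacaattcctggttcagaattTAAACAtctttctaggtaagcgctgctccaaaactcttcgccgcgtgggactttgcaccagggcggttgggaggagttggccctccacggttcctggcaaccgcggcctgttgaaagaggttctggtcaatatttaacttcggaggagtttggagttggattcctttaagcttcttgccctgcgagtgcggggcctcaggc
These letters are descriptions of sequence and not sites of binding, and no hg19 peak was placed on them because the builds differ.

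Peaks were almost confined to 2 of the 4 clusters. HOXA and HOXB held 265 of the 272 peaks, or 97.4%. H3K27ac gave 70 peaks in HOXA (in 10 of 14 lists), 109 in HOXB (13 of 14 lists), 0 in HOXC and 1 in HOXD. p-c-JUN gave 43 peaks in HOXA and 28 in HOXB, with all 6 lists holding some in each, and 1 in HOXC and 4 in HOXD. FOXF1 gave 11 peaks in HOXA and 4 in HOXB, each from 3 of 8 lists, 0 in HOXC and 1 in HOXD. Over the genome as a whole, windows of this size without an H3K27ac peak are common. Of 21026 tiles of the HOXC length, 29.7% held no H3K27ac peak in any of the 14 lists. Of tiles of the HOXD length, 34.0% held as few as HOXD or fewer. The tiles ran from the first to the last peak of each chromosome and were not matched for genes or assembly gaps. They do not show what is usual for windows as rich in genes. The stretches of equal length beside HOXC held 18 H3K27ac peaks below and 4 above over the 14 lists, and those beside HOXD held 22 and 17. Beside HOXA they held 37 and 4, against 70 within the window, and beside HOXB 86 and 106, against 109. For p-c-JUN over 6 lists, HOXA had 43 against 17 and 12 beside it. HOXB had 28, fewer than the 56 and 57 beside it.

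**Figure D1:**
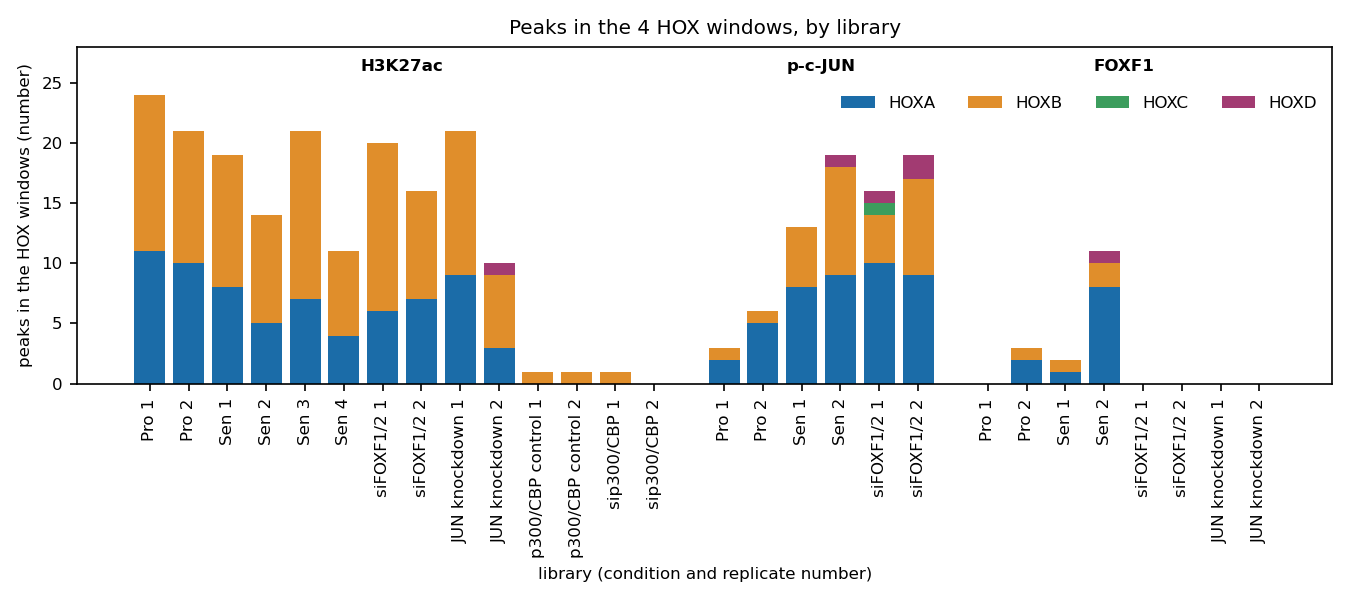
Peaks in the HOX windows (vertical axis, number) in each of the 28 libraries (horizontal axis, by antibody, condition and replicate number), with bars stacked by cluster. H3K27ac bars reach 24 in Pro replicate 1 and are 1 or 0 in the sip300/CBP experiment, and HOXC and HOXD add at most 2 peaks to any library.

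Within HOXA and HOXB fewer peaks lay in the high part of the window than in the low part, at the HOXA2 and HOXB1 ends. The counts pool all lists, so a region held by several lists is counted several times. The parts are equal in length and not in number of genes. The genes in each part were not counted, so the part of gene spacing in this split was not tested. Cut into 3 equal parts from low to high coordinate, the HOXA window held 35, 33 and 2 of its H3K27ac peaks and 25, 18 and 0 of its p-c-JUN peaks. The HOXB window held 70, 34 and 5 of its H3K27ac peaks, and 14, 7 and 7 of its p-c-JUN peaks. FOXF1 peaks were 7, 4 and 0 over the parts of HOXA, and all 4 in HOXB lay in the low part. The high part of HOXA, at the HOXA13 end, had 2 peaks over all lists, both H3K27ac and both from the second deposit.

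**Figure D2:**
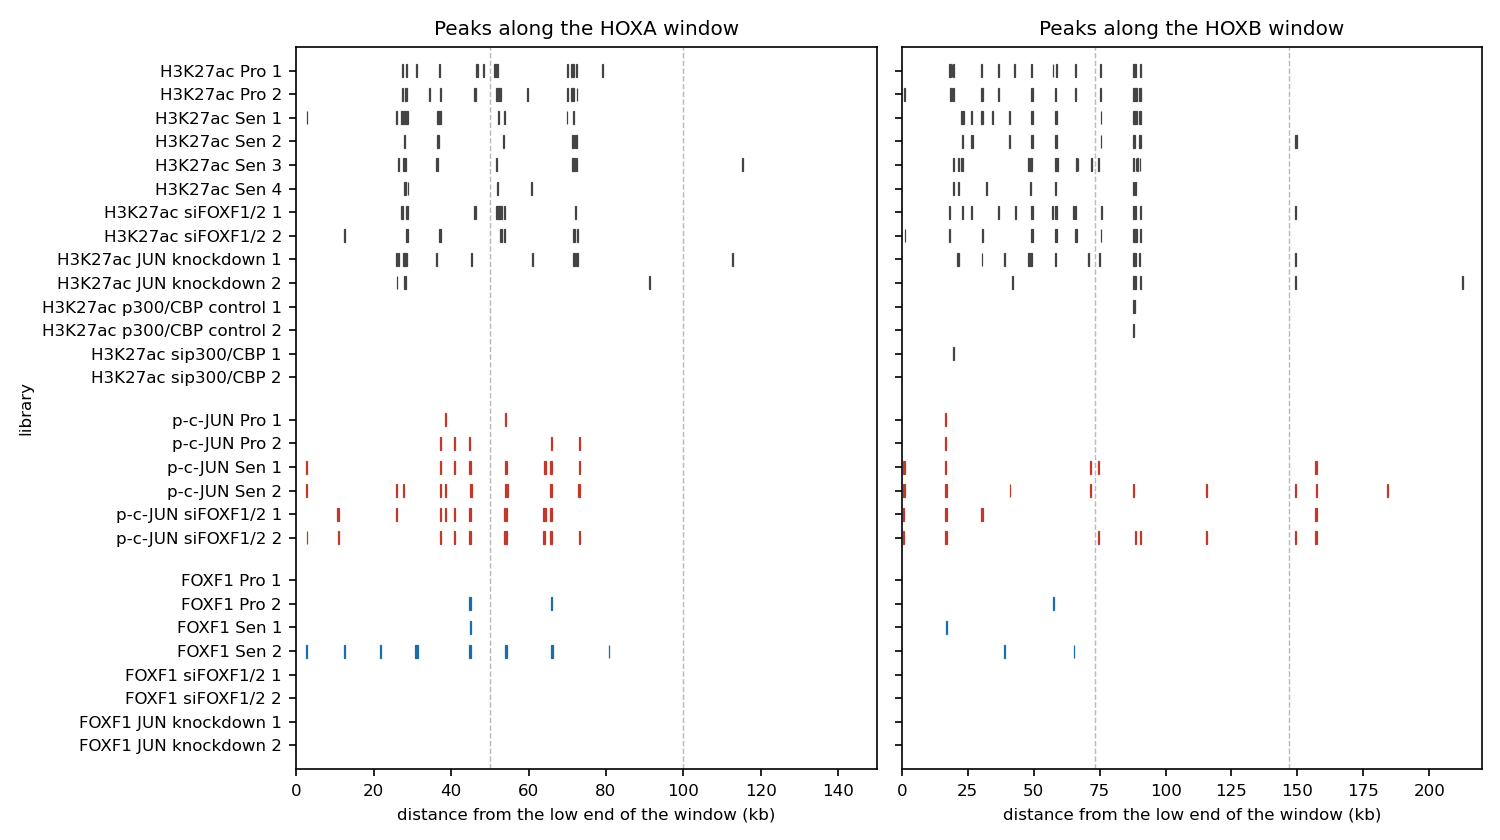
Each tick is a peak, drawn to scale by its distance in kb from the low end of the HOXA (left) or HOXB (right) window, with 1 row per library coloured by antibody and dashed lines between the 3 equal parts. H3K27ac ticks crowd the low and middle parts of both windows, as do p-c-JUN ticks in HOXA. The p-c-JUN rows of Sen and siFOXF1/2 show more ticks than those of Pro.

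The H3K27ac regions shared by most lists were few. Joining the 14 lists gave 51 regions in the windows, of which 28 were held by 2 or more lists and 23 by 1. The region at chr17:46687524-46689582 in HOXB was held by 12 of 14 lists, with a fold over the local background at the summit of 4.68 and 4.62 in Pro, 4.80, 3.80, 5.06 and 4.97 in Sen, 5.18 and 5.02 after siFOXF1/2, 5.63 and 4.14 after JUN knockdown, and 3.26 and 4.06 in the control of sip300/CBP. Only the sip300/CBP lists lacked it. In HOXA the widest holding was at chr7:27136996-27138958, in 10 of 14 lists, with folds of 2.3 and 2.05 in Pro, 3.04, 3.03, 4.43 and 3.79 in Sen, 2.38 and 2.49 after siFOXF1/2, and 4.52 and 3.46 after JUN knockdown. The lists without it were those of the sip300/CBP experiment, which held from 1549 to 8234 peaks. Folds are the authors' values and rank peaks within a list, so they are not compared between lists.

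HOX acetylation peaks stood on a local background above that of the usual peak. Summit pileup (fragments over the summit) and local background were solved from each peak's deposited fold and p-value. In the 10 H3K27ac lists with peaks in both clusters, the median local background at HOXB peaks was 1.72 to 6.53 times the list's own median, and that at HOXA peaks 1.25 to 3.56 times. Median summit pileup was 1.08 to 2.86 times the list's median in HOXB and 0.938 to 1.98 times in HOXA. Median fold was 2.25 to 3.36 in HOXB and 2.3 to 4.06 in HOXA, against list medians of 3.78 to 4.41. The median fold of HOXB peaks lay below that of the whole list in all 10 lists, and their median background lay above the list's median background in all 10. Background was computed from the fold, so these are not separate observations.

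**Figure D3:**
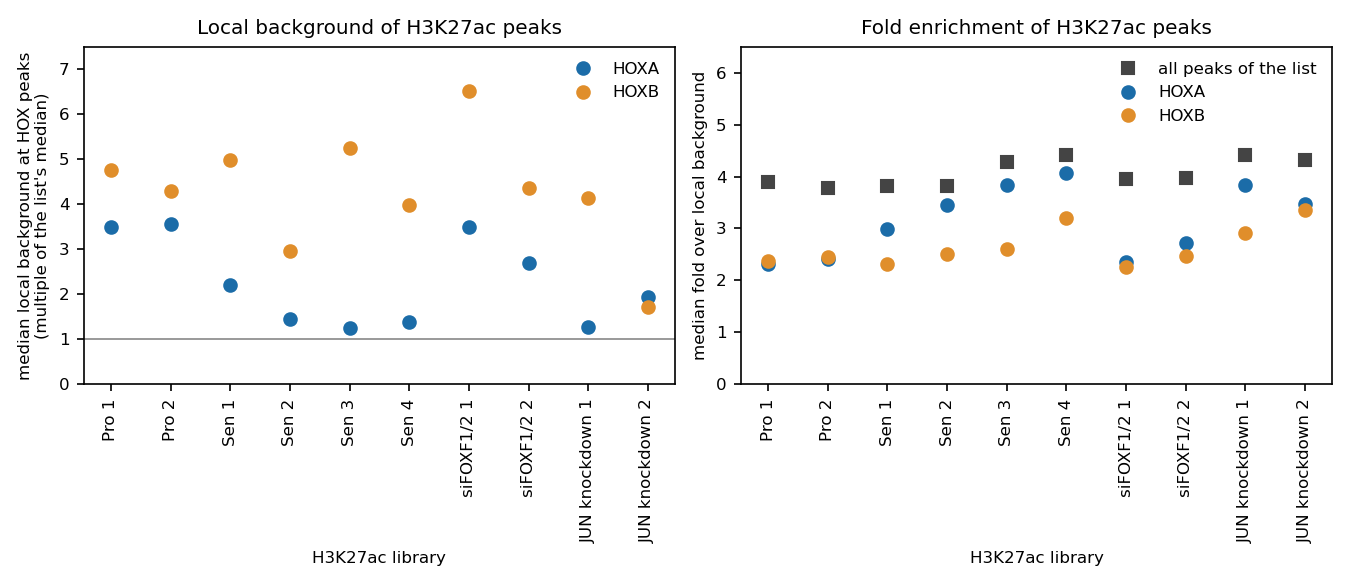
For the 10 H3K27ac libraries with peaks in both clusters, the left panel plots the median local background at HOXA and HOXB peaks as a multiple of the list's median (line at 1), and the right panel plots median fold beside that of all peaks of the list. Each point is 1 library's median, and all HOXB points on the left lie between 1.72 and 6.53.

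From Pro to Sen, 8 HOX regions kept H3K27ac in all 4 lists, 4 were gained and 5 were lost. HOX peaks numbered 24 and 21 in Pro and 19 and 14 in Sen replicates 1 and 2, a log2 difference of -0.44 ± 0.23 (SE, n = 2 per group, exact permutation p = 0.333, the smallest that 2 against 2 can give). These groups do not overlap, but Sen replicate 3, of the second deposit, had 21 HOX peaks, as many as Pro replicate 2, and with all 4 Sen libraries the difference was -0.48 (exact permutation p = 0.2). In bulk libraries fewer marked cells and less of the mark per cell cannot be told apart. Per 10000 peaks of the list the values were 2.85 and 2.35 in Pro against 2.24 and 2.3 in Sen replicates 1 and 2. Sen replicates 3 and 4 stood at 4.30 and 4.12, above both Pro lists. Their lists held 48859 and 26694 peaks, against 84304 and 89329 in Pro. With lists of equal length the difference between Pro and Sen replicates 1 and 2 turned to 0.10. Of 34 joined regions, 8 were held by all 4 lists (23.5%, against 25.9% of all regions), 4 were gained (11.8%, against 4.51%) and 5 were lost (14.7%, against 9.56%). A region was gained where both Sen lists and neither Pro list held a peak, and lost where the reverse held. With a −log10 q of at least 5 the gained count was 0 and the lost count 3, and with all 4 Sen libraries they were 0 and 3.

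Each region that differed lay within 6.86 kb of a peak of the other condition, some of these peaks being in 1 list or in a region that itself differed. The gained regions were chr7:27163483-27163974 (folds 3.43 and 3.45 in Sen) in HOXA, and chr17:46622969-46623389 (2.09 and 2.41), chr17:46626090-46626813 (2.31 and 2.3) and chr17:46640693-46641109 (2.17 and 2.50) in HOXB. The lost regions were chr7:27156009-27156902 (2.60 and 2.59 in Pro) in HOXA, and chr17:46617959-46619125 (2.72 and 2.32), chr17:46619414-46619902 (2.09 and 2.01), chr17:46636406-46636975 (2.20 and 2.19) and chr17:46665738-46666129 (2.36 and 2.33) in HOXB. Gained regions were 0.51 to 3.32 kb from the nearest Pro peak, with a median of 2.26 kb against 4.74 kb for all gained regions. Lost regions were 2.00 to 6.86 kb from the nearest Sen peak, with a median of 3.15 kb against 5.73 kb. The lost site at chr17:46619414-46619902 had peaks in Sen replicates 3 and 4, at folds of 2.79 and 3.19, and that at chr17:46665738-46666129 had one in Sen replicate 3 (1.96). Of the gained regions, only chr17:46622969-46623389 had a peak in Sen replicate 3 (2.08), and none had one in replicate 4.

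After siFOXF1/2 few HOX regions of H3K27ac differed from Sen in both libraries. HOX peaks numbered 19 and 14 in Sen and 20 and 16 after knockdown, a log2 difference of 0.13 ± 0.26 (SE, n = 2 per group, exact permutation p = 0.667), and the groups overlap. Of 29 regions, 8 were held by all 4 lists (27.6%, against 26.7% of all regions), 2 were gained (6.90%, against 5.51%) and 1 was lost (3.45%, against 4.26%). The gained regions, chr17:46617715-46618370 (folds 2.59 and 2.46) and chr17:46665662-46666226 (1.88 and 2.25), overlap positions lost from Pro to Sen, and the lost region, chr17:46640693-46641109, is one gained from Pro to Sen. The comparisons share the Sen libraries, so these sites are not independent observations. With a −log10 q of at least 5 both counts were 0.

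The local background at shared H3K27ac regions was examined as well, a choice made after values were seen. In the HOX windows, 7 regions were held by all 6 lists of Pro, Sen (replicates 1 and 2) and siFOXF1/2. Of these, 3 had a lower background (as a multiple of the list median) in both Sen lists than in both Pro lists. Genome-wide, 36.2% of 29185 such regions did, and 1 of the 7 had it higher, against 36.0%. At chr7:27136996-27138907 it was 4.16 and 4.87 in Pro, 2.66 and 1.86 in Sen and 4.32 and 3.41 after siFOXF1/2. At chr7:27181033-27182739 it was 3.31 and 3.43, then 2.16 and 1.45, then 3.33 and 2.69. At chr17:46648873-46649840 it was 6.44 and 6.87, then 4.61 and 3.37, then 6.73 and 6.43. In 6 of 7 regions it was higher in both siFOXF1/2 lists than in both Sen lists, against 34.8% genome-wide, and in 0 of 7 lower, against 26.0%. Both HOXA regions were among the 6. Sen replicates 3 and 4 were not in these counts. At chr17:46657963-46659236 Sen replicate 3 was at 6.92, above siFOXF1/2 replicate 2 (6.53). It was above both siFOXF1/2 lists at chr17:46687524-46689582 (1.99 against 1.83 and 1.78) and chr17:46689770-46690680 (1.95 against 1.81 and 1.83). At the other regions of the 6 it stayed below both, at 2.50, 1.25 and 3.85. Sen replicate 4 was below both wherever it had a peak among the 6. The share of 3 in 7 is near the genome-wide share. The 7 regions are not independent, since chr17:46687524-46689204 and chr17:46689770-46690680 are neighbours with near-equal background, at 1.57 and 1.52 in Pro replicate 1. Sen replicate 2 had the shortest of the 6 lists, and the part of list length in these values was not tested.

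The numbers of HOX acetylation peaks with and without JUN knockdown overlapped. Sen replicates 3 and 4 had 21 and 11 HOX peaks and the knockdown 21 and 10, a log2 difference of -0.06 ± 0.66 (SE, n = 2 per group, exact permutation p = 1). Of 35 regions, 3 were held by all 4 lists (8.57%, against 11.8%), 2 were gained (5.71%, against 7.66%) and 2 were lost (5.71%, against 2.74%). The gained regions were chr7:27135710-27136107 (folds 2.70 and 3.11) and chr17:46749207-46749573 (5.96 and 3.93). The lost ones were chr7:27161717-27162036 (4.44 and 4.34 in Sen) and chr17:46619300-46619872 (2.79 and 3.19). Both gained regions had a peak in 1 Sen library of the first deposit, replicate 1 in HOXA and replicate 2 in HOXB. With all 4 Sen libraries both counts were 0.

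The sip300/CBP experiment had too few peaks for a reading. Its control lists had 1 HOX peak each, both at chr17:46687725-46688279, within the HOXB region that 12 lists held, and the knockdown lists had 1 and 0 (log2 difference -0.50 ± 0.50, SE, n = 2 per group, exact permutation p = 1). That region counted as lost, 1 of 2 regions, against 2.69% of all regions, 0 were gained against 2.02% and 0 were held by all 4 lists against 0.490%. The 1 knockdown peak lay at chr17:46619387-46619699. At a −log10 q of at least 5, and with lists of equal length, the lost count was 0. Absence from lists of this length says nothing about the level of acetylation.

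p-c-JUN had more HOX peaks in Sen than in Pro, and the Sen lists were longer throughout. They numbered 3 and 6 in Pro and 13 and 19 in Sen, a log2 difference of 1.66 ± 0.48 (SE, n = 2 per group, exact permutation p = 0.333, the smallest possible). The groups do not overlap. The Pro lists held 24808 and 32136 peaks and the Sen lists 70177 and 93443, and per 10000 list peaks the HOX windows held 1.21 and 1.87 in Pro against 1.85 and 2.03 in Sen. With lists cut to equal length the difference reversed, to -0.50, and the count of gained regions fell to 0. Of 22 regions 4 were gained (18.2%, against 28.0% of all regions), 0 were lost (against 0.307%) and 1 was held by all 4 lists (4.55%, against 18.1%).

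The gained p-c-JUN regions were spread over both clusters. In HOXA there was chr7:27112454-27112846, at the HOXA2 end, with folds of 5.03 and 4.83 in Sen. In HOXB they were chr17:46600509-46601043 (6.34 and 5.52), at the edge of the window, chr17:46671374-46671604 (4.20 and 4.66) and chr17:46756851-46757453 (10.3 and 5.38). The last and the first of these HOXB regions were held by both siFOXF1/2 lists as well, at 10.5 and 7.71 and at 3.03 and 3.79. The HOXA region had a peak in siFOXF1/2 replicate 2 only (3.73), and chr17:46671374-46671604 in neither. The best ranked p-c-JUN regions of HOXA held by both Sen lists were chr7:27163812-27164682 (6.75 and 9.27), chr7:27154614-27155325 (4.58 and 5.34) and chr7:27175505-27176157 (4.22 and 4.79). The region held by all 6 p-c-JUN lists was chr17:46616420-46617035 in HOXB, with folds of 4.21 and 6.08 in Pro, 4.43 and 7.37 in Sen, and 6.17 and 5.24 after siFOXF1/2.

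After siFOXF1/2, 7 of the 10 HOX regions that both Sen lists held for p-c-JUN were held by both knockdown lists as well. Over the genome it was 46000 of 59347 such regions. HOX peaks numbered 13 and 19 in Sen and 16 and 19 after knockdown, a log2 difference of 0.14 ± 0.28 (SE, n = 2 per group, exact permutation p = 1). Of 29 regions, 7 were held by all 4 lists (24.1%, against 35.9%), 2 were gained (6.90%, against 4.47%) and 1 was lost (3.45%, against 4.03%). The lost region was chr17:46671374-46671604. The gained regions were chr7:27120408-27120886 (folds 3.81 and 7.45) and, in HOXD, chr2:177043561-177043957 (5.54 and 7.53), the 1 HOXD region that a pair of replicate lists shared. HOXC had its only peak in siFOXF1/2 replicate 1, at chr12:54406210-54406507 with a fold of 5.05.

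FOXF1 was seen in the HOX windows in 3 lists, and 1 region was held by both Sen lists. HOX peaks numbered 0 and 3 in Pro, 2 and 11 in Sen, 0 and 0 after siFOXF1/2, and 0 and 0 after JUN knockdown. From Pro to Sen the log2 difference was 1.58 ± 1.41 (SE, n = 2 per group, exact permutation p = 0.667). The Pro and Sen values overlap. The difference was 0.58 without Pro replicate 1 or Sen replicate 2 and 2.58 without Pro replicate 2 or Sen replicate 1. The Pro lists held 3441 and 11061 peaks and the Sen lists 13603 and 40537. Per 10000 list peaks the HOX windows held 0 and 2.71 in Pro against 1.47 and 2.71 in Sen. With lists cut to equal length the log2 difference was 0. Of 13 regions 0 were gained (against 13.1% of all regions), 0 were lost (against 0.350%) and 0 were held by all 4 lists (against 4.50%). The region of both Sen lists, chr7:27154626-27155127, had folds of 4.41 and 7.16 in Sen and a peak of fold 4.09 in Pro replicate 2. A further region, chr7:27175786-27176211, was held by Pro replicate 2 (3.55) and Sen replicate 2 (5.33). The other 11 regions came from 1 list each, 9 of them from Sen replicate 2.

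After either knockdown no FOXF1 list had a HOX peak, a log2 difference of -2.58 ± 1.00 from Sen in both cases (SE, n = 2 per group, exact permutation p = 0.333), or -1.58 without Sen replicate 2 and -3.58 without Sen replicate 1. The knockdown lists held 186 and 133 peaks after siFOXF1/2 and 378 and 883 after JUN knockdown, against 13603 and 40537 in Sen. An even spread of those peaks over the genome would put 0.0285 to 0.189 in the windows, so a loss is not detectable at this list length. The region chr7:27154626-27155127 counted as lost in both, 1 of 12 regions each, against 26.2% of all regions after siFOXF1/2 and 25.4% after JUN knockdown, with 0 gained against 0.0607% and 0.148%. None was held by all 4 lists, against 0.121% and 0.194%. The 2 comparisons share the Sen libraries. FOXF1 lists of the JUN knockdown belong to the second deposit and those of Sen to the first, so the effects of knockdown and of deposit cannot be told apart here, and the siFOXF1/2 lists carried another peak name prefix than the other lists. Their peaks were also narrower, with a median width of 108 and 103 bp against 284 to 358 bp in the other 6 FOXF1 lists, so whether they were called with the same settings is not known and their peak numbers may not be comparable.

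**Figure D4:**
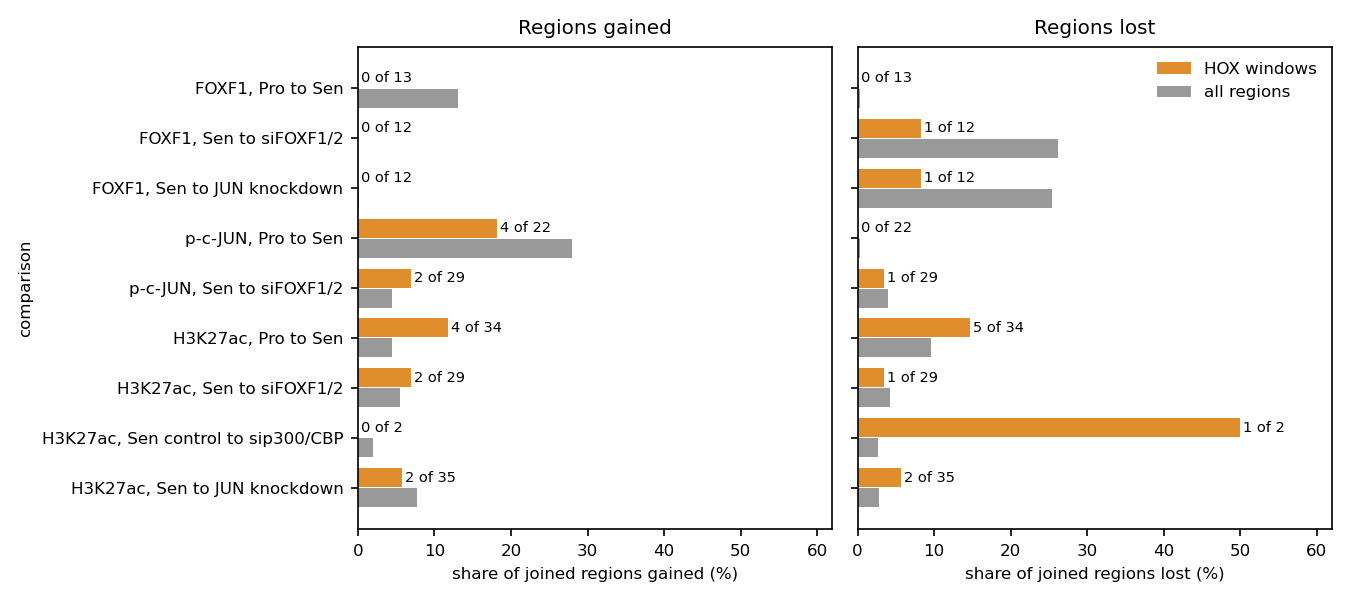
Share of joined regions gained (left) and lost (right), in percent, for each of the 9 comparisons, with HOX windows in orange (count beside the bar) and all regions in grey. The largest HOX bar is 1 of 2 regions in the sip300/CBP comparison, and p-c-JUN from Pro to Sen has 4 of 22 gained beside 28.0% of all regions.

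FOXF1 and p-c-JUN peaks overlapped at 2 HOXA regions held by more than 1 list of each. The p-c-JUN region at chr7:27154614-27155325, held by 5 of 6 lists, overlapped the FOXF1 region of both Sen lists, and p-c-JUN kept a peak there in both siFOXF1/2 lists, at folds of 4.41 and 4.17. The p-c-JUN region at chr7:27175437-27176183, also in 5 of 6 lists, overlapped the FOXF1 region of Pro replicate 2 and Sen replicate 2. In Sen, 2 of 2 FOXF1 HOX peaks of replicate 1 and 4 of 11 of replicate 2 overlapped a p-c-JUN peak, against 81.4% and 72.9% of those lists.

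In each p-c-JUN list a smaller share of HOX peaks than of all peaks lay on a called H3K27ac peak. A site without a called peak may still carry the mark, so these shares do not give the level of acetylation. Of p-c-JUN HOX peaks, 0 of 3 and 1 of 6 in Pro overlapped an H3K27ac peak of replicate 1 or 2 of the same condition, against 88.6% and 85.9% of the lists. In Sen it was 3 of 13 and 8 of 19, against 60.2% and 54.9%, and after siFOXF1/2 3 of 16 and 5 of 19, against 62.6% and 60.5%. With all 4 H3K27ac Sen libraries, added after these values were seen, the Sen counts were 4 of 13 and 8 of 19, against 62.9% and 58.0%. The share over the 4 windows was below the list's share in all 6 libraries, but not that of each cluster: in Sen replicate 2, 5 of 9 HOXA peaks (55.6%) lay on H3K27ac, about the list's share, and 3 of 9 in HOXB. Of the FOXF1 HOX peaks in Sen, 0 of 2 and 2 of 11 overlapped H3K27ac, against 82.8% and 74.2%. From the other side, H3K27ac HOX peaks overlapping p-c-JUN were 1 of 24 and 1 of 21 in Pro (33.9% and 32.0% of the lists) and 7 of 19 and 3 of 14 in Sen (59.2% and 60.4%), with 5 of 8 HOXA peaks (62.5%) in Sen replicate 1 and 0 of 5 in Sen replicate 2. No test was run on these shares, whose peaks within a library are not replicates.

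**Figure D5:**
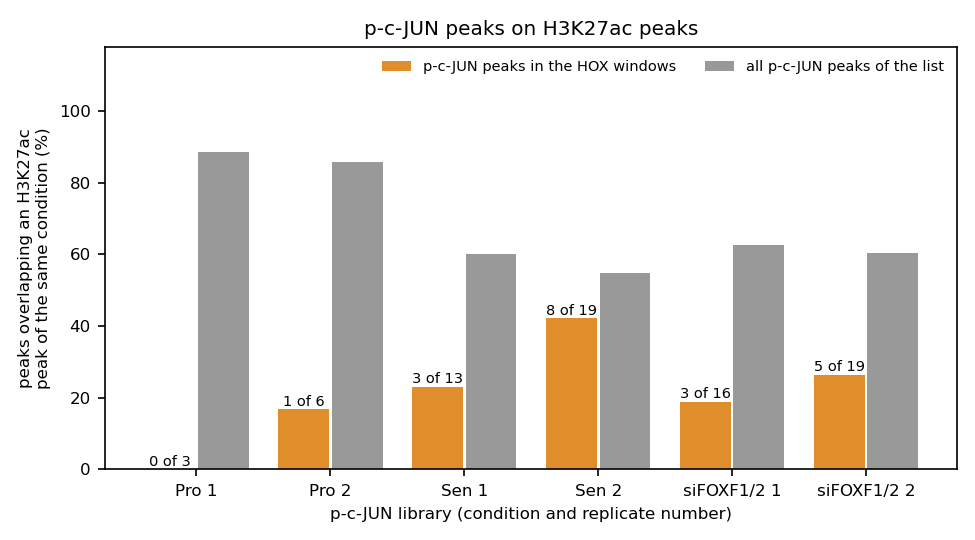
Share of p-c-JUN peaks that overlap a peak of H3K27ac replicate 1 or 2 of the same condition (vertical axis, percent) in each of the 6 p-c-JUN libraries, for HOX peaks (orange, counts above the bars) and the whole list (grey). The orange bar is the lower in every library, from 0 of 3 in Pro replicate 1 to 8 of 19 in Sen replicate 2.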

How the data were processed

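CUT&RUN was deposited as 28 narrowPeak lists, 1 per library. Per the submitters' processing notes, reads on build hg19 were handled with MACS2 3.0.0, Bowtie2 2.3.4.1, deepTools 3.1.1 and SAMtools 1.9. Parameters and control libraries are not given in the sources used here. The deposited columns were a display score, a fold (ratio over local background at the summit) and −log10 of p and q. Read depth is unknown, and lists of 133 to 93443 peaks stand in for it.

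Only chromosomes 1 to 22 and X were used, leaving out 475 of 1123812 peaks. Lists were joined into regions by 1 bp of overlap. Peak numbers were compared as log2(number + 1) by a two-sided exact permutation test. A Poisson model gave summit pileup and local background from the deposited fold and −log10 p, with a whole pileup found for 97.6% to 100% of peaks. Planted regions were recovered on copies of real lists whose replicates agreed by construction, which checks the code and not the calls between real replicates. Regions named are, per cluster, the top H3K27ac Sen region by fold, up to 5 FOXF1 regions, 3 p-c-JUN Sen regions and up to 3 gained and 3 lost per comparison by rank of −log10 q; other regions named were chosen after their values were seen. Gene lists and cell type markers that need hg19 gene models were not analysed here. The members and lists were chosen with earlier results of these data known. Python 3.11.15, pandas 2.3.3, numpy 2.4.6 and scipy 1.17.1 were used.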

Additional observations from a re-analysis of the deposited data

How the results depend on the processing

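No peak-number test could pass a threshold, so only directions and counts are compared. The alternatives were a −log10 q of at least 5, lists of equal length, summits inside a window, 50% overlap, a pseudocount of 0.5, all 4 H3K27ac Sen libraries, a replicate block and each library left out. Summits inside a window, the pseudocount and the replicate block changed no direction and no count. With lists of equal length the log2 difference in HOX peaks reversed for p-c-JUN from Pro to Sen (-0.50), for H3K27ac from Pro to Sen (0.10) and for H3K27ac after siFOXF1/2 (-0.45). It became 0 for FOXF1 in all 3 comparisons and for p-c-JUN after siFOXF1/2. In the same setting, regions lost were 0 for FOXF1 after siFOXF1/2 and after JUN knockdown and 0 for sip300/CBP. For p-c-JUN, 0 were gained and 1 lost from Pro to Sen, and 3 were lost after siFOXF1/2. For H3K27ac after siFOXF1/2, 1 was gained and 3 were lost, and after JUN knockdown 0 were gained. The cause was not tested, though shorter lists hold fewer peaks by construction.

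At a −log10 q of at least 5, FOXF1 lost 0 regions in both knockdowns, p-c-JUN gained 1 after siFOXF1/2, and H3K27ac gained 0 and lost 3 from Pro to Sen, gained 0 and lost 0 after siFOXF1/2, and gained 0 and lost 1 after JUN knockdown. For sip300/CBP the peak-number difference and the regions lost were both 0. With 50% overlap H3K27ac gained 2 from Pro to Sen. With all 4 H3K27ac Sen libraries it gained 0 and lost 3 from Pro to Sen, gained 1 and lost 0 after siFOXF1/2, and gained 0 and lost 0 after JUN knockdown.

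Leaving out 1 library lets single-library regions count, so counts can rise by construction. FOXF1 regions gained from Pro to Sen ran from 0 to 9 and lost from 0 to 1, and those lost after siFOXF1/2 and after JUN knockdown from 1 to 11. p-c-JUN gained 5 to 13 from Pro to Sen, and after siFOXF1/2 gained 2 to 5 and lost 1 to 6. The highest of these, 9, 11 and 13, came without Sen replicate 1 of FOXF1 or p-c-JUN. H3K27ac gained 4 to 8 and lost 6 to 11 from Pro to Sen, gained 2 to 7 and lost 3 to 6 after siFOXF1/2, and gained 2 to 7 and lost 2 to 8 after JUN knockdown. For sip300/CBP 0 to 1 were gained. The log2 difference in HOX peaks ran from 0.58 to 2.58 for FOXF1 and from -0.64 (without Sen replicate 1) to -0.23 (without Sen replicate 2) for H3K27ac from Pro to Sen, from 1.26 to 2.06 for p-c-JUN from Pro to Sen, and from -3.58 to -1.58 for FOXF1 after either knockdown. It ran from -0.12 to 0.40 for p-c-JUN after siFOXF1/2, from -0.082 to 0.33 for H3K27ac after siFOXF1/2, from -0.56 to 0.44 for H3K27ac after JUN knockdown and from -1 to 0 for sip300/CBP. Their reversed values were -0.12 without p-c-JUN Sen replicate 1, -0.082 without H3K27ac Sen replicate 2, -0.027 without siFOXF1/2 replicate 1, 0.37 without Sen replicate 3 and 0.44 without JUN knockdown replicate 2.

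With the replicate block the differences were those of the unpaired test, 1.58, -2.58 and -2.58 for FOXF1, 1.66 and 0.14 for p-c-JUN, and -0.44, 0.13 and -0.50 for H3K27ac, with exact sign-flip p of 0.5 or 1. Nothing in the labels pairs the libraries, and the correlation of same-numbered deviations ran from -0.21 to 0.03. The crossed pairing was added after seeing the data, where that correlation was under -0.1. It could call nothing, since no exact sign-flip p below 0.5 is possible here. H3K27ac after JUN knockdown had no block, since its replicate numbers differ.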
